A study of Caenorhabditis elegans with 9 samples.

Results

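The *pud* genes are the 6 genes of the *C. elegans* genome that carry the names *pud-1.1*, *pud-1.2*, *pud-2.1*, *pud-2.2*, *pud-3* and *pud-4*, of 46739 genes in the count table. They were taken by name, and the family was selected on the read counts of *pud-4*, which were much lower with both RNAi treatments than with the empty vector (EV). The values of all members against EV are therefore given as a description without a test, and tests are kept for the direct comparison of the treatments. Polyadenylated RNA was sequenced from whole worms, taken here to be L4 larvae of the wild-type strain N2 fed RNAi bacteria from the L1 stage. The paper states this for its qRT-PCR with the same treatments, while its RNA sequencing methods name no stage or strain. There were 3 groups of 3 libraries, namely *cco-1* RNAi, against a subunit of complex IV of the mitochondrial respiratory chain, *his-3* RNAi, against histone H2A genes with *his-3* among them, and EV, the bacteria without a targeting insert. The question was what mitochondrial stress and a disturbed histone balance during development do to gene expression. RNA of whole larvae mixes all tissues, so that fewer cells of a type and less RNA per cell cannot be told apart.

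The name stands for protein up-regulated in *daf-2* loss of function, after the proteins that are abundant in mutants of the insulin/IGF-1 receptor DAF-2. DAF-2 acts through the kinase AGE-1 and the AKT kinases to keep the FOXO transcription factor DAF-16 out of the nucleus, and reduced DAF-2 signalling lengthens life. The proteins PUD-1 and PUD-2 form a heterodimer, and the *pud* genes are known to be expressed in intestine and hypodermis.

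The 6 genes lie together on chromosome V of WBcel235, from 2322038 to 2330930, within 8893 bp. From left to right they are *pud-1.2* (WBGene00021236, 2322038 to 2322566, minus strand), *pud-2.2* (WBGene00017500, 2323014 to 2323524, plus strand), *pud-3* (WBGene00017501, 2324634 to 2325152, minus strand), *pud-4* (WBGene00017498, 2326678 to 2327282, plus strand), *pud-2.1* (WBGene00017490, 2329444 to 2329954, minus strand) and *pud-1.1* (WBGene00017499, 2330429 to 2330930, plus strand). The order is a mirror image around the middle, with a *pud-1* and *pud-2* gene pointing away from each other at either end, 447 bp apart on the left and 474 bp apart on the right. *pud-3* and *pud-4* point away from each other in the middle, 1525 bp apart. The *pud-2* copies have the same layout, an exon of 253 bases and an exon of 212 bases, which encode 154 residues. The *pud-1* copies both have 456 coding bases for 151 residues, and their last exon has 200 bases in either. *pud-3* is annotated with 1 exon of 519 bases and 172 residues, and *pud-4* with 2 transcripts, and the longest coding region has 489 bases for 162 residues. The Ensembl annotation prints the symbol *pud-2.2* for both *pud-2* copies, and the symbol *pud-2.1* was taken from the RefSeq gene at the same position.

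**Figure D1:**
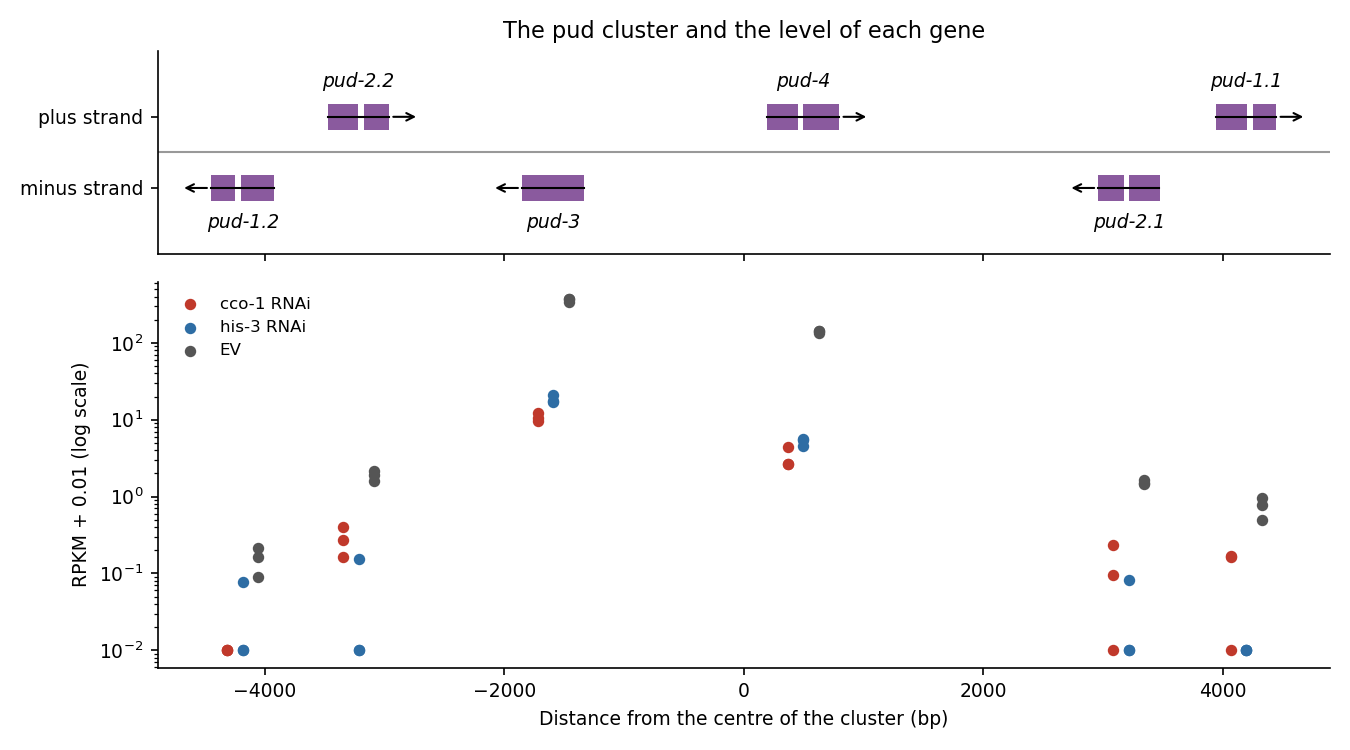
The upper panel draws the exons (boxes) and direction (arrows) of the 6 *pud* genes to scale along the cluster, as distance from its centre in bp, and the lower panel gives the level of each gene in RPKM plus 0.01 on a log scale, with 1 point per library (3 each of *cco-1* RNAi, *his-3* RNAi and EV). *pud-3* and *pud-4* in the middle have the highest counted levels in each group, and points at the lower edge are libraries without a read. Reads that match both copies of a pair are not counted, so that the levels of the *pud-1* and *pud-2* copies may be higher than drawn.

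Reads on genes numbered 25129763 to 32017517 per library. The gene targeted by *cco-1* RNAi, listed as *cox-5B*, had 4538 to 4945 normalized counts under *cco-1* RNAi, 9261 to 9633 under *his-3* RNAi and 12509 to 12749 in EV. *his-3* had 100 to 120 normalized counts under *his-3* RNAi, 13.6 to 22.5 under *cco-1* RNAi and 169 to 180 in EV. Normalized counts are reads scaled by TMM to a library of average size, and RPKM are the same reads scaled to sequencing depth and to the exon length in kilobases. Both targets were thus lower in their own treatment than in EV, and each was also lower under the other treatment, *his-3* most of all under *cco-1* RNAi. Other histone H2A genes were not examined here. Any read that matches *his-3* and another H2A gene equally well is not counted, so that the level of *his-3* may be higher than its counts. In the paper's qRT-PCR, *cco-1* RNAi had no major effect on core histone genes beyond a slight rise of H3 genes.

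*pud-4* and *pud-3* were abundant in EV larvae and low in both treatments. *pud-4* had 42.0, 70.9 and 42.0 normalized counts under *cco-1* RNAi, 89.01, 71.7 and 87.8 under *his-3* RNAi, and 2254, 2278 and 2155 in EV. The lowest EV library thus lay far above the highest treated library. Its log2 fold change was −5.42 under *cco-1* RNAi (standard error 0.108) and −4.75 under *his-3* RNAi (standard error 0.0981), so that 2.34% and 3.72% of the EV level were left. *pud-4* was the gene by which the family was chosen, and it ranked 194 from the bottom among the 16817 tested genes under *cco-1* RNAi and 3 from the bottom under *his-3* RNAi.

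*pud-3*, the neighbour on the opposite strand, followed the same pattern. It had 143, 180 and 154 normalized counts under *cco-1* RNAi, 307, 253 and 259 under *his-3* RNAi, and 5414, 5452 and 5022 in EV. Again no treated library came near an EV library. On the log2 scale *pud-3* changed by −5.05 under *cco-1* RNAi (standard error 0.0776), a 33.2-fold lower level, and −4.28 under *his-3* RNAi (standard error 0.0706), a 19.4-fold lower level. It ranked 243 and 7 from the bottom of the 16817 genes.

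Per length of exon, *pud-3* reached 10.8 ± 1.27 RPKM under *cco-1* RNAi, 18.6 ± 2.03 RPKM under *his-3* RNAi and 360.0 ± 16.2 RPKM in EV (SD, n = 3 each). *pud-4* reached 3.23 ± 1.04 RPKM under *cco-1* RNAi, 5.18 ± 0.603 RPKM under *his-3* RNAi and 139 ± 4.07 RPKM in EV (SD, n = 3 each). In EV larvae, *pud-3* was at rank 354 and *pud-4* at rank 948 of 16702 tested genes with a known length, that is, among well-expressed genes. Under *cco-1* RNAi they were at ranks 8001 and 11687, and under *his-3* RNAi at ranks 6097 and 10898. *pud-3* thus stood above 52.1% of genes under *cco-1* RNAi and 63.5% under *his-3* RNAi, against 97.9% in EV, and *pud-4* above 30.03% and 34.8%, against 94.3% in EV.

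*pud-3* had more reads than *pud-4* in each of the 9 libraries. The ratio of their reads was 3.41, 2.54 and 3.68 under *cco-1* RNAi, 3.45, 3.53 and 2.95 under *his-3* RNAi, and 2.40, 2.39 and 2.33 in EV. Each treated library lay above the EV libraries, so that *pud-4* was lower by somewhat more than *pud-3*. This ratio is taken within a library and does not depend on the scaling, but it contains the values that chose the family and is not tested. Together *pud-3* and *pud-4* held 96.3 to 97.7% of the counted reads on the cluster under *cco-1* RNAi, at least 99.3% under *his-3* RNAi and 99.1 to 99.3% in EV. Reads that match both copies of *pud-1* or *pud-2* are not in this count, so that the true shares may be lower. The libraries of a group were closest to each other in EV, where the SD of log2 CPM was 0.0657 for *pud-3* and 0.0424 for *pud-4*. It was 0.167 and 0.436 under *cco-1* RNAi, and 0.154 and 0.174 under *his-3* RNAi, where the same genes had far fewer reads.

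**Figure D2:**
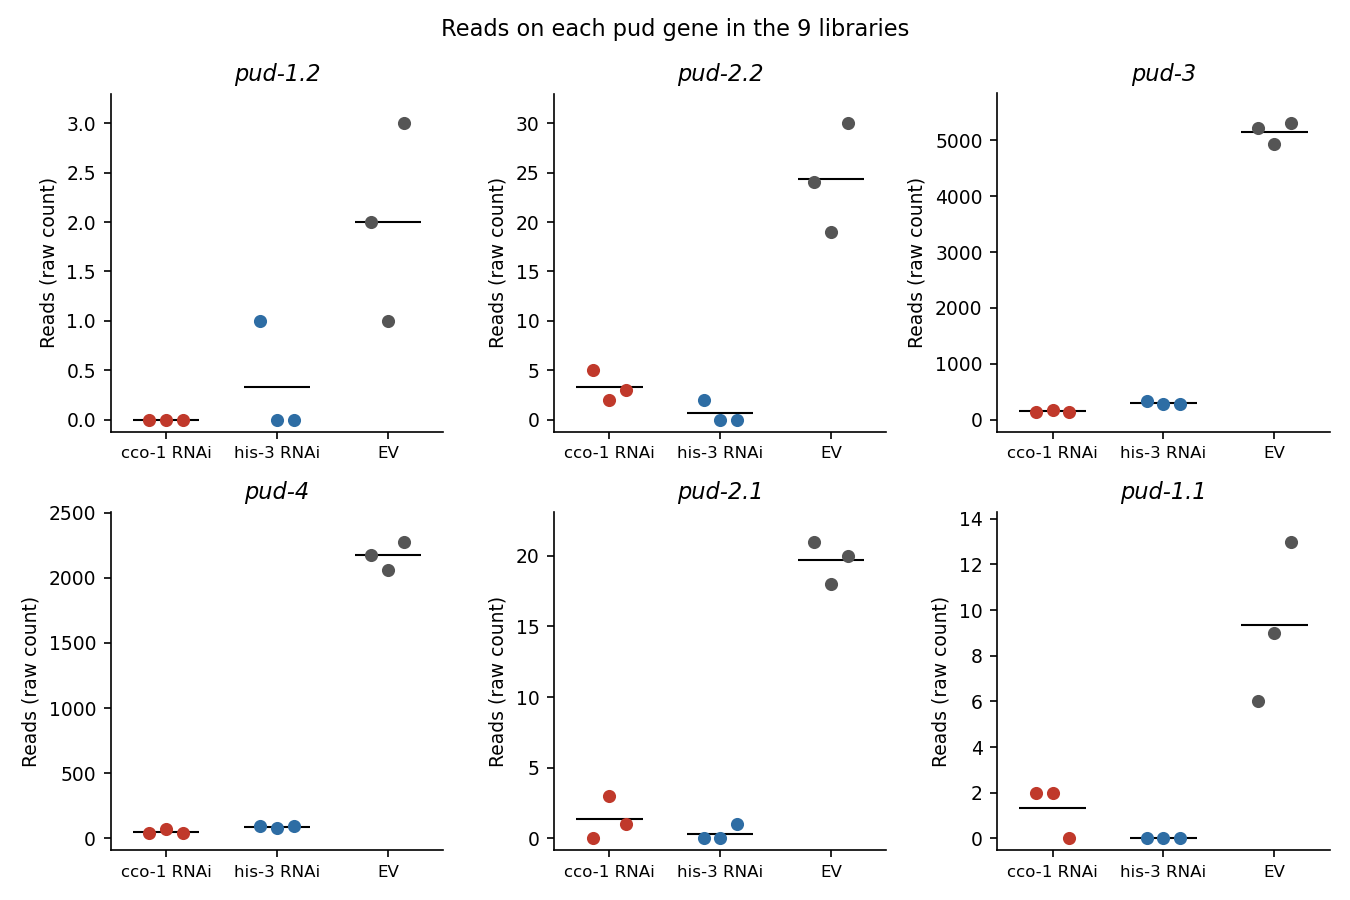
Raw reads on each *pud* gene (vertical axis, a scale of its own per gene) in the 3 libraries each of *cco-1* RNAi, *his-3* RNAi and EV (points), with the group mean (line), in the order of the genes along the cluster. For 5 of the 6 genes all treated libraries lie below all EV libraries, and for *pud-1.2* the highest library of *his-3* RNAi and the lowest of EV have 1 read each. For each treatment by itself, the normalized counts of its libraries lay below EV for 38.2% of tested genes under *cco-1* RNAi and 30.4% under *his-3* RNAi. These shares cover genes that passed the filter on low counts, as 2 of the 6 members did. The share of genes below EV in both treatments at once was not computed, and nothing is read from the count of members.

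The *pud-1* and *pud-2* copies had few counted reads in any group. The authors' count leaves out reads that align to several places, so that any read that matches both copies of a pair is missing, and the levels of these genes may be higher than the counts. *pud-2.2* had 5, 2 and 3 reads under *cco-1* RNAi, 2, 0 and 0 under *his-3* RNAi, and 24, 19 and 30 in EV. *pud-2.1* had 0, 3 and 1 reads under *cco-1* RNAi, 0, 0 and 1 under *his-3* RNAi, and 21, 18 and 20 in EV. For these *pud-2* copies, whose product pairs with PUD-1, the EV libraries stood above all treated libraries. *pud-1.1* had 2, 2 and 0 reads under *cco-1* RNAi, no read under *his-3* RNAi, and 6, 9 and 13 in EV. *pud-1.2* had no read under *cco-1* RNAi, 1, 0 and 0 under *his-3* RNAi, and 2, 1 and 3 in EV.

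Summed over the libraries of a group and set against the scaled size of the libraries, *pud-2.2* was 7.13-fold lower under *cco-1* RNAi than in EV (10 against 73 reads, 95% interval 3.67 to 15.5) and *pud-2.1* was 14.4-fold lower (4 against 59 reads, 5.34 to 54.7). Under *his-3* RNAi the same ratios were 40.1-fold lower for *pud-2.2* (2 against 73 reads, 10.7 to 337) and 64.8-fold lower for *pud-2.1* (1 against 59 reads, 11.2 to 2602). These intervals are exact binomial intervals and cover counting error only, not the spread between samples. *pud-1.1* was 6.84-fold lower under *cco-1* RNAi (4 against 28 reads, 2.39 to 26.8). Where a group had no read, it was set to a floor of 3 reads over the group, and the exact 95% lower limit, which also holds the counting error of EV, is given beside it. *pud-1.1* was at least 10.2-fold lower under *his-3* RNAi by this floor, and its exact limit was 7.80-fold. *pud-1.2* was at least 1.95-fold lower under *cco-1* RNAi by the floor, with an exact limit of 1.15-fold. Under *his-3* RNAi it was 6.59-fold lower (1 against 6 reads, 0.799 to 303), an interval that includes no difference. Because the family was chosen in the comparisons with EV, all of these intervals and limits are a description of counting error. None of them is read as a test. The share of reads that aligned to several places was 6.33 to 6.58% under *cco-1* RNAi, 6.30 to 6.60% under *his-3* RNAi and 6.90 to 7.27% in EV. This share moved with the treatments, and its part in the low counts was not tested.

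*pud-3* and *pud-4* passed the filter on low counts (more than 5 reads in more than 3 libraries), and the other 4 members did not. *pud-1.1*, *pud-2.1* and *pud-2.2* had more than 5 reads in exactly 3 libraries, those of EV, and *pud-1.2* in none. The log2 fold changes of both genes lay under −2 in both treatments. Among all genes tested, 6.61% were lower by at least 2 on the log2 scale at an edgeR adjusted p under 0.05 under *cco-1* RNAi and 0.714% under *his-3* RNAi, and 10.9% and 3.95% changed past these limits in either direction. At an adjusted p under 0.05 alone, 70.8% of the genes changed under *cco-1* RNAi and 54.8% under *his-3* RNAi. Of these calls 50.7% and 50.9% were lower, against 37.7% and 16.2% with *act-1* and *pmp-3* as the scale and 42.9% and 22.7% with library size alone, so that small changes depend on the scale while those of *pud-3* and *pud-4* are much larger than its shift. With upper quartile scaling 43.4% and 39.3% were lower. Because the family was selected in these comparisons, nothing is read from the members' count against these shares. All 3 treated libraries lay below all 3 EV libraries for 38.2% of the tested genes under *cco-1* RNAi and for 30.4% under *his-3* RNAi.

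**Figure D3:**
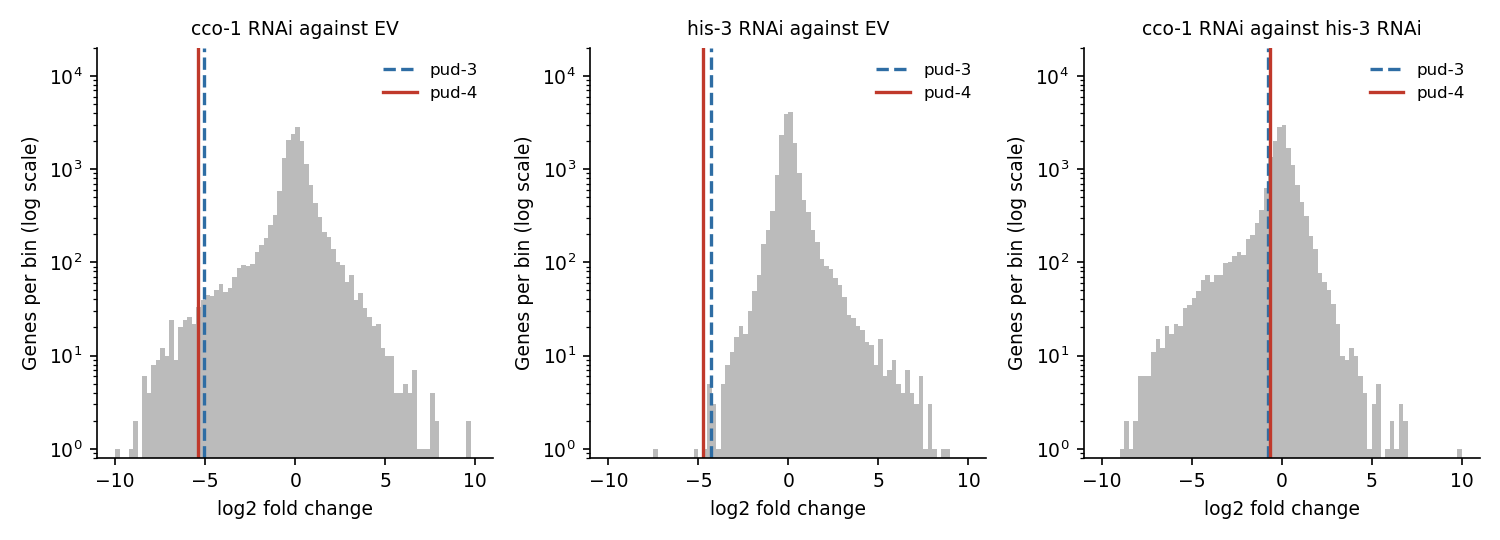
Distribution of the log2 fold change over the 16817 tested genes (grey, number of genes per bin on a log scale, values beyond 10 in size drawn in the last bin) in the comparisons of *cco-1* RNAi with EV, *his-3* RNAi with EV and the treatments with each other, with *pud-4* (solid line) and *pud-3* (dashed line). Under *his-3* RNAi both genes stand at the lower end, at −4.75 and −4.28, while under *cco-1* RNAi, at −5.42 and −5.05, more genes lie beyond them.

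The treatments were then compared directly. The choice of the family did not use the difference between them, but the counts of *pud-4* in both treatments were among the values it used. *pud-3* was 1.71-fold lower under *cco-1* RNAi than under *his-3* RNAi, a log2 fold change of −0.78 (standard error 0.0998, 95% interval −0.99 to −0.56, edgeR quasi-likelihood F test, adjusted p = 3.03e-06). *pud-4* was 1.59-fold lower, a log2 fold change of −0.67 (standard error 0.172, 95% interval −1.03 to −0.30, edgeR quasi-likelihood F test, adjusted p = 0.00253). For *pud-3* the highest *cco-1* RNAi library (180) lay well below the lowest *his-3* RNAi library (253), whereas for *pud-4* the nearest libraries of the treatments, at 70.9 and 71.7 normalized counts, almost met. Differences between the treatments were common. At an adjusted p under 0.05, 68.6% of the tested genes differed, 36.8% lower and 31.8% higher under *cco-1* RNAi, and the *cco-1* RNAi libraries lay wholly below the *his-3* RNAi libraries for 38% of the tested genes. Of the calls 53.6% were lower, against 65.3% with *act-1* and *pmp-3* as the scale and 65.0% with library size alone. A difference of at least 2 on the log2 scale, which neither gene reached, was found for 9.07% of the genes, with 7.2% of all genes on the lower side.

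The reads of the *pud-2* copies pointed the other way. Summed over both copies, there were 5, 5 and 4 reads under *cco-1* RNAi against 2, 0 and 1 under *his-3* RNAi, so that each *cco-1* RNAi library was higher. The ratio was 5.24 (14 against 3 reads, 95% exact binomial interval 1.46 to 28.5, counting error only). These copies did not pass the filter on low counts, and the spread between samples is not in this interval. For the *pud-1* copies the sums were 4 reads under *cco-1* RNAi and 1 read under *his-3* RNAi, a ratio of 4.49 (0.445 to 221), so that a difference was not detectable at this depth. Whether the *pud-2* copies and *pud-3* differ in their response was not tested.

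Genes beside the cluster were examined to see how far the pattern reached. Within 10 kb of a member the annotation holds 7 other genes, of which 4 passed the filter on low counts. None of these was called in any of the 3 comparisons by edgeR, limma-voom or DESeq2, and 0 had an unadjusted p under 0.05, while with upper quartile scaling, library size alone or *act-1* and *pmp-3* as the scale edgeR called 1 of the 4 higher under *his-3* RNAi, and with the last 2 scales 1 lower under *cco-1* RNAi than under *his-3* RNAi. The nearest, *Y19D10B.6* (WBGene00021235), lies 937 bp from *pud-1.2* and had 275 ± 24.98 normalized counts under *cco-1* RNAi, 302 ± 8.95 under *his-3* RNAi and 274 ± 9.16 in EV (SD, n = 3 each). It gave a log2 fold change of 0.0082 under *cco-1* RNAi (standard error 0.0821, edgeR adjusted p = 0.934) and 0.14 under *his-3* RNAi (standard error 0.0799, edgeR adjusted p = 0.153). On the other side, the first gene is *irld-32*, 986 bp from *pud-1.1*, with 2 to 11 reads over all libraries. Of the other tested neighbours, WBGene00021234 had 4 to 13 reads and *irld-30* 2 to 7. The standard errors of these low genes were 0.413 to 0.567 on the log2 scale, so that only large changes could have been called. Among the tested neighbours, only *Y19D10B.6* had reads enough to show a small change. The 3 neighbours that failed the filter had at most 7 reads in any library.

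The genes whose pattern over the 9 libraries was most like that of *pud-4* were sought among 12168 tested genes that averaged 100 normalized counts or more, by the root mean square distance of log2 CPM after the mean of each gene had been taken off. *pud-3* was the nearest, at a distance of 0.238 log2 units. It was followed by *C27D9.2* at 0.631, the vitellogenin gene *vit-5* at 0.847, *cest-10*, named for its carboxylesterase domain, at 0.863, and *cht-4*, a chitinase gene, at 0.964. *C27D9.2* and *cest-10* were also the genes nearest to *pud-3* after *pud-4*, at 0.451 and 0.667. *C27D9.2* had 10.1 ± 0.139 normalized counts under *cco-1* RNAi, 29.6 ± 6.40 under *his-3* RNAi and 317 ± 10.1 in EV (SD, n = 3 each). *vit-5*, which encodes a yolk protein, had 224 ± 108, 716 ± 33.5 and 5254 ± 310 normalized counts in the same order (SD, n = 3 each). The step in distance after *pud-3* shows that by this distance no other gene of this abundance was as close to *pud-4*. By Pearson correlation *cest-1.2* and *nol-6* came before *pud-3*. The distance is a description, since the libraries fall into 3 groups.

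**Figure D4:**
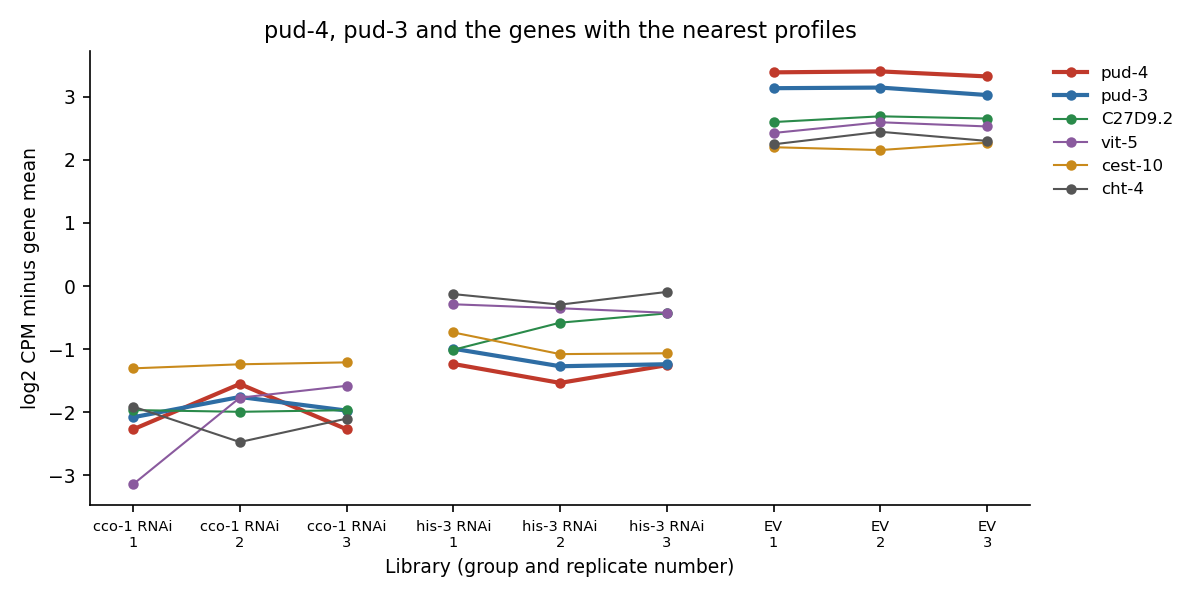
log2 CPM minus the mean of each gene (vertical axis) in the 9 libraries (horizontal axis, 3 each of *cco-1* RNAi, *his-3* RNAi and EV) for *pud-4*, *pud-3* and the other genes nearest to them. The *pud* genes (thick lines) run together, and the others have the same order of the groups with a smaller difference from EV in both treatments.

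Since the *pud* genes are named for their response to *daf-2* mutation, the genes of that pathway were examined. Among 15 components of the insulin pathway, all tested, 7 were higher and 3 lower under *cco-1* RNAi, and 6 were higher and 4 lower under *his-3* RNAi, at an adjusted p under 0.05. With *act-1* and *pmp-3* as the scale these numbers were 10 and 2 under *cco-1* RNAi and 10 and 1 under *his-3* RNAi. Over all genes tested, 34.9% were higher and 35.9% lower under *cco-1* RNAi, and 26.9% and 27.9% under *his-3* RNAi. The receptor gene *daf-2* rose in both, to 3388 to 3760 normalized counts under *cco-1* RNAi and 2411 to 2831 under *his-3* RNAi, against 1495 to 1898 in EV. Its log2 fold changes were 1.14 and 0.67 (standard errors 0.0787 and 0.0790, edgeR adjusted p = 1.17e-09 and 2.16e-06). The kinase gene *akt-1* fell by 0.45 under *cco-1* RNAi on the log2 scale (standard error 0.0431, edgeR adjusted p = 8.90e-08), and the kinase gene *sgk-1* fell by 0.50 (standard error 0.0559, edgeR adjusted p = 5.87e-07). Under *his-3* RNAi, *ftt-2*, which encodes a 14-3-3 protein that binds DAF-16, fell by 0.46 on the log2 scale (standard error 0.0617, edgeR adjusted p = 9.03e-06). With *act-1* and *pmp-3* as the scale the changes were −0.28 for *akt-1* and −0.33 for *sgk-1* under *cco-1* RNAi, and −0.17 for *ftt-2* under *his-3* RNAi (edgeR adjusted p = 0.0163).

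Genes that DAF-16 is known to raise when DAF-2 is reduced, as the *pud* genes are raised, moved in both directions. Of 20 such genes listed, 16 were tested, and 7 were higher and 8 lower under *cco-1* RNAi, with a median log2 fold change of −0.058 against 0.0061 over all genes. Under *his-3* RNAi the numbers were 4 higher and 8 lower, with a median of −0.29 against 0.020 over all genes. The medians were 0.11 and 0.0032 with *act-1* and *pmp-3* as the scale, with 7 higher and 7 lower under *cco-1* RNAi and 7 higher and 6 lower under *his-3* RNAi. The glycolytic gene *gpd-2* rose by 2.08 on the log2 scale under *cco-1* RNAi (standard error of 0.0550, edgeR adjusted p = 3.39e-15). The dehydrogenase gene *dao-3* was lower in both, at −1.71 and −1.03 on the log2 scale, as was the cytochrome P450 gene *cyp-34A9*, at −1.34 and −2.49 (edgeR adjusted p of at most 1.62e-11 for each). The ferritin gene *ftn-1* fell by 1.75 under *his-3* RNAi (standard error 0.0870, edgeR adjusted p = 4.51e-11). The lowest fold changes of the 16 tested genes were −2.77 for *dod-3* under *cco-1* RNAi and −3.03 for *cyp-35B1* under *his-3* RNAi, smaller in size than those of *pud-3* and *pud-4*. The highest were 3.24 for *mtl-1* under *cco-1* RNAi (standard error 0.359) and 2.27 for *hil-1* under *his-3* RNAi (standard error 0.238). The summed level of the list was higher in both treatments, at 2119 to 2266 CPM under *cco-1* RNAi and 1295 to 1536 CPM under *his-3* RNAi. In EV it was 1182 to 1263 CPM.

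Of 7 *dod* genes that are lowered when DAF-2 is reduced, the opposite class, 6 were higher under *cco-1* RNAi and 1 lower, and 6 were higher under *his-3* RNAi and 0 lower. Their median log2 fold change was 0.80 under *cco-1* RNAi and 1.99 under *his-3* RNAi. *dod-22*, a CUB-like domain gene, had 750 to 825 normalized counts under *cco-1* RNAi and 2736 to 2920 under *his-3* RNAi, against 141 to 175 in EV. Its log2 fold changes were 2.33 and 4.19 (edgeR adjusted p = 4.81e-14 and 1.23e-16). *dod-20* rose by 4.02 under *his-3* RNAi, and *dod-19* rose by 0.62 and 1.43 with *cco-1* and *his-3* RNAi (edgeR adjusted p of at most 9.97e-09 for each). *dod-23* was the exception in the class, lower under *cco-1* RNAi at 5.68 to 8.19 normalized counts, and higher under *his-3* RNAi at 607 to 687, against 150 to 180 in EV.

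Markers of the tissues that express *pud* genes were present in all libraries, with no marker of intestine or hypodermis at 0 reads. Of 8 intestinal markers tested (of 9 listed), 6 were higher and 2 lower under *cco-1* RNAi, and 1 was higher and 7 lower under *his-3* RNAi. Their summed level was 6591 to 6675 CPM under *cco-1* RNAi, 2513 to 3112 CPM under *his-3* RNAi and 3384 to 3737 CPM in EV. The 11 hypodermal markers summed to 672 to 826 CPM under *cco-1* RNAi, 2222 to 2605 CPM under *his-3* RNAi and 2793 to 2896 CPM in EV, with 6 higher and 5 lower under *cco-1* RNAi and 6 higher and 2 lower under *his-3* RNAi. Their median log2 fold change was 0.32 under *cco-1* RNAi and 0.24 under *his-3* RNAi, so that the sum does not stand for most of these markers. Single hypodermal markers ran from −4.46 to 2.11 on the log2 scale under *cco-1* RNAi. Of the other lists, sperm markers fell under *cco-1* RNAi, 8 of 8 tested, at 449 to 485 CPM against 664 to 681 CPM in EV, while under *his-3* RNAi 1 of 8 was higher, at 687 to 723 CPM. Muscle markers were lower in both treatments (4 and 5 of 6). Germline markers were mixed (2 higher and 5 lower under *cco-1* RNAi, 4 higher and 5 lower under *his-3* RNAi), and 4 and 3 of 6 neuronal markers were higher. With *act-1* and *pmp-3* as the scale, 3 of the 8 intestinal markers were lower under *his-3* RNAi, 9 of the 11 hypodermal, 7 of the 8 sperm and 6 of the 6 neuronal markers were higher and 0 of these lower, and 3 of the 6 muscle markers were lower. On that scale, germline markers had 3 higher and 2 lower under *cco-1* RNAi and 5 higher and 1 lower under *his-3* RNAi, and 7 of 8 sperm markers were lower under *cco-1* RNAi.

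The yolk genes, which the intestine turns on as larvae become adults, were lower in both treatments, as the *pud* genes were, and the same numbers were called with each scale tried. All 6 vitellogenin genes were lower at an adjusted p under 0.05 (edgeR) in both treatments, with median log2 fold changes of −4.33 under *cco-1* RNAi and −2.62 under *his-3* RNAi. Their summed level was 251 to 321 CPM under *cco-1* RNAi, 847 to 935 CPM under *his-3* RNAi and 2895 to 3376 CPM in EV, while the 6 *pud* genes summed to 6.79 to 9.09, 11.5 to 14.1 and 255 to 275 CPM in the same order. The part of developmental timing or of tissue make-up in the *pud* values was not tested.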

How the data were processed

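Stranded polyadenylated RNA libraries of 9 samples of larvae were sequenced together. The authors aligned reads with STAR 2.5.3a to WBcel235 and assigned them to genes with HTSeq. The deposited table holds the resulting whole-number counts without normalization. Its summary lines, of which reads aligned to several places took 6.30 to 7.27% and reads in no gene 0.715 to 1.13% of a column, stayed out of library sizes and tests. A gene was tested if over 5 reads fell on it in over 3 libraries (16817 genes). edgeR 4.0.16 in R 4.3.3 fitted all 9 libraries in a single model with TMM factors, a prior count of 0.125 and the quasi-likelihood F test, with Benjamini-Hochberg adjustment over all genes tested. The standard error is the log2 fold change divided by the square root of F. No source says whether replicates were separate cultures beyond their numbers, so p-values measure the spread between libraries. Libraries had 25129763 to 32017517 reads assigned to genes. The biological coefficient of variation was 4.92%. Groups were taken from the sample titles. Positions are those of Ensembl for WBcel235.

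The members and lists were chosen with earlier results of these data known. Named genes are all members, both RNAi targets, the 5 genes nearest to *pud-4* and the 3 nearest to *pud-3*, all genes within 10 kb, and the 3 genes of lowest p in each *daf-2* list, beside genes chosen after their values were seen (*dod-3*, *cyp-35B1*, *mtl-1*, *hil-1*, and the *pudl* genes). A gene of the insulin pathway list that this rule names is not reported here. Alternatives were limma-voom (limma 3.58.1), DESeq2 1.42.0, other scalings and filters, a replicate block, summed copies, and leaving out each library.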

Additional observations from a re-analysis of the deposited data

How the results depend on the processing

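Between *cco-1* and *his-3* RNAi, the log2 fold changes of *pud-3* and *pud-4* kept their direction and an adjusted p under 0.05 in all 14 settings and with each library left out. The 14 settings gave −0.90 to −0.73 for *pud-3* (adjusted p at most 5.40e-05, edgeR, limma-voom and DESeq2) and −0.79 to −0.63 for *pud-4* (adjusted p at most 0.0110). With a library left out, *pud-4* ran from −0.98, without *cco-1* RNAi replicate 2, to −0.53 (adjusted p = 4.08e-05 to 0.0174, edgeR), and *pud-3* from −0.88 to −0.68. The replicate block gave −0.67 for *pud-4* (edgeR adjusted p = 0.00495) and −0.78 for *pud-3*, and changed no call of a member. Same-numbered libraries were not treated as pairs in the main model, and no source says whether they belong together. The correlation of their deviations ran from −0.045 to 0.085, against −0.099 to 0.10 for other numbers.

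The number of members called (2 in each comparison, and 2 with each library left out) depended on the filter, since fewer or more genes are then tested. Without a filter it was 6 under *cco-1* RNAi and 5 under *his-3* RNAi. With more than 5 reads in at least 3 libraries, a setting chosen after the data had been seen, it was 5, 5 and, for *cco-1* RNAi against *his-3* RNAi, 4 members. With the copies also summed it was 4 and 4. The members added passed through the reads of EV, the group in which they are high, so that these numbers carry no support. With the main filter, 70.8%, 54.8% and 68.6% of all tested genes were called in the 3 comparisons at an adjusted p under 0.05. The shares with the other filters are not given here, and no count of members is read as a result. Past a log2 fold change of 2, 1836, 664 and 1525 genes were called in the 3 comparisons. With at least 10 reads in every library these were 1041, 272 and 826, and without a filter 1098 genes under *his-3* RNAi. With a library left out they ran from 1781 to 1834, 611 to 679 and 1473 to 1542.

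With *act-1* and *pmp-3* as the scaling genes, the median log2 fold change of all genes was 0.17, 0.31 and −0.17, and by library size alone 0.10, 0.24 and −0.17. Against EV, where the values chose the family and are not tested, *pud-4* ran from −5.45 to −5.25 under *cco-1* RNAi and from −4.78 to −4.46 under *his-3* RNAi over the 14 settings. By Pearson correlation in place of the distance, 1 of the 5 nearest genes, *pud-3*, stayed among the 5 most like *pud-4*, in the third place after *cest-1.2* and *nol-6*. The counts of *pud-1* and *pud-2* copies limit what can be said of them.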

Other observations

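*pudl-1* and *pudl-2*, *pud*-like genes on chromosome IV, did not share the pattern of the cluster. They were chosen after their values were seen and are given without a test. *pudl-1* (WBGene00044489) had 128, 111 and 103 reads under *cco-1* RNAi, 75, 77 and 110 under *his-3* RNAi, and 70, 48 and 79 in EV. *pudl-2* (WBGene00044490) had 42, 47 and 23 reads under *cco-1* RNAi, 9, 6 and 12 under *his-3* RNAi, and 0, 2 and 3 in EV. Both were higher in all *cco-1* RNAi libraries than in all EV libraries, where the *pud* genes were lower.

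The filter of more than 5 reads in more than 3 libraries removes genes that are expressed in 1 group of 3 libraries. It left out 467 genes with more than 5 reads in exactly 3 libraries. For 244 of these the 3 libraries were those of *his-3* RNAi, for 43 those of *cco-1* RNAi, and for 16 those of EV, 3 of which are *pud-1.1*, *pud-2.1* and *pud-2.2*.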
